A study of Homo sapiens with 12 samples.

Results

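The genes described here are 35 genes of endoplasmic reticulum (ER) protein folding and of the unfolded protein response, listed by name for their place in the pathway. They are ER chaperones and co-chaperones, disulfide enzymes, the sensors and transcription factors of the response, components of ER-associated degradation, and parts of the translocon and of the COPII vesicle coat. Of the 35, 34 had a probe set paired with that gene alone, and all 34 passed the filter on low signal, among 13673 genes tested. The probe set of *SYVN1* is also paired with *MIR6751*, so this gene has no value here. *DERL3* lay nearest the filter, with a highest signal of 106 on any array against a filter signal of 49.3.

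Transcripts were measured in U2OS, an established human osteosarcoma line with intact, endogenous p53, on 12 Affymetrix U133 Plus 2.0 arrays in 4 groups of 3. Cells had received doxorubicin at 0.6 µg/ml, which traps topoisomerase II on broken DNA, and were compared with untreated cells. Others had received 10 µM nutlin-3, which keeps MDM2 from binding p53, and were compared with cells in its solvent, 0.1% DMSO. Treatment lasted 24 hours in each case, and all groups came from a single cell line.

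Proteins that fail to fold in the ER draw the chaperone BiP away from sensors in the ER membrane. The sensor IRE1, encoded by *ERN1*, then splices *XBP1* mRNA, the kinase PERK, encoded by *EIF2AK3*, slows translation through eIF2 alpha, and ATF6 is cut to release a transcription factor. The transcription factors raise chaperones, folding enzymes and degradation genes, many through an ER stress response element in the promoter. These arrays measure transcripts, not splicing of *XBP1*, cleavage of ATF6 or activity of PERK.

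Promoter windows from RefSeq (GRCh38.p14), 250 bases before to 50 after each annotated start, were found for 31 of the 35 genes. They were searched on both strands for the ER stress response element (ERSE, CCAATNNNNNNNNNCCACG), for ERSE-II (ATTGGNCCACG) and for the XBP1 element known as UPRE (TGACGTGG), which can overlap ERSE-II. ERSE was found in 7 of the 31 genes, *CALR*, *CANX*, *CRELD2*, *HSP90B1*, *HSPA5*, *PDIA6* and *XBP1*. It was found in 0.0916% of all 27305 genes with a window and in 0.0769% of all 35116 windows. ERSE-II was found in *HERPUD1*, *HYOU1* and *SDF2L1*, in 0.0696% of all genes and in 0.0541% of windows. UPRE was found in *HYOU1* alone among these genes, where it overlaps an ERSE-II match. It was found in 0.927% of all genes and in 0.729% of windows. The genes were listed for their place in this response, which acts through such elements, so no enrichment is drawn from these shares. *SEC24D*, *DERL3*, *PDIA3* and *DERL1* had no window here. The sequences below belong to called genes with a match, because some of these genes rose and others fell with doxorubicin. Each is given 5′ to 3′ on the gene's strand, with the matches in capitals, and ERSE-II genes were added after their values were seen.
HSPA5 (minus strand, chr9:125241344-125241593, the 250 bases before the start): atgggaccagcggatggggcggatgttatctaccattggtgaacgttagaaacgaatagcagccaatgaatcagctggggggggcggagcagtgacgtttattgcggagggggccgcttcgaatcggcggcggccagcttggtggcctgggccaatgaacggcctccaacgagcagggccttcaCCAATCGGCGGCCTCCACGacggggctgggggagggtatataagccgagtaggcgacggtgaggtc
HSP90B1 (plus strand, chr12:103930201-103930354, 2 ERSE): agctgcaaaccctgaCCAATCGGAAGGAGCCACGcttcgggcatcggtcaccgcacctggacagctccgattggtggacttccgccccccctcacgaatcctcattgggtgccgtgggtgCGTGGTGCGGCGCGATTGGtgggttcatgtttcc
XBP1 (minus strand, chr22:28800588-28800636, ERSE): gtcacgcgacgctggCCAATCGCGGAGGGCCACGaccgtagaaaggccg
CANX (plus strand, chr5:179698778-179698796, ERSE): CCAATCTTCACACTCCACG
CRELD2 (plus strand, chr22:49918539-49918587, ERSE on the other strand): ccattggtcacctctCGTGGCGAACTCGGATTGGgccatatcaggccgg
HERPUD1 (plus strand, chr16:56932010-56932050, ERSE-II): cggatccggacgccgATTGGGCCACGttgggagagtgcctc
SDF2L1 (plus strand, chr22:21642099-21642139, ERSE-II on the other strand): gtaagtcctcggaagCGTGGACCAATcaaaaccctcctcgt
HYOU1 (minus strand, chr11:119057259-119057408, 2 ERSE-II on the other strand, UPRE overlapping the first): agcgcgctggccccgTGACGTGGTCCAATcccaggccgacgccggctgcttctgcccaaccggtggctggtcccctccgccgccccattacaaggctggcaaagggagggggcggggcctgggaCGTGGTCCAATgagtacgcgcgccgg

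**Figure D1:**
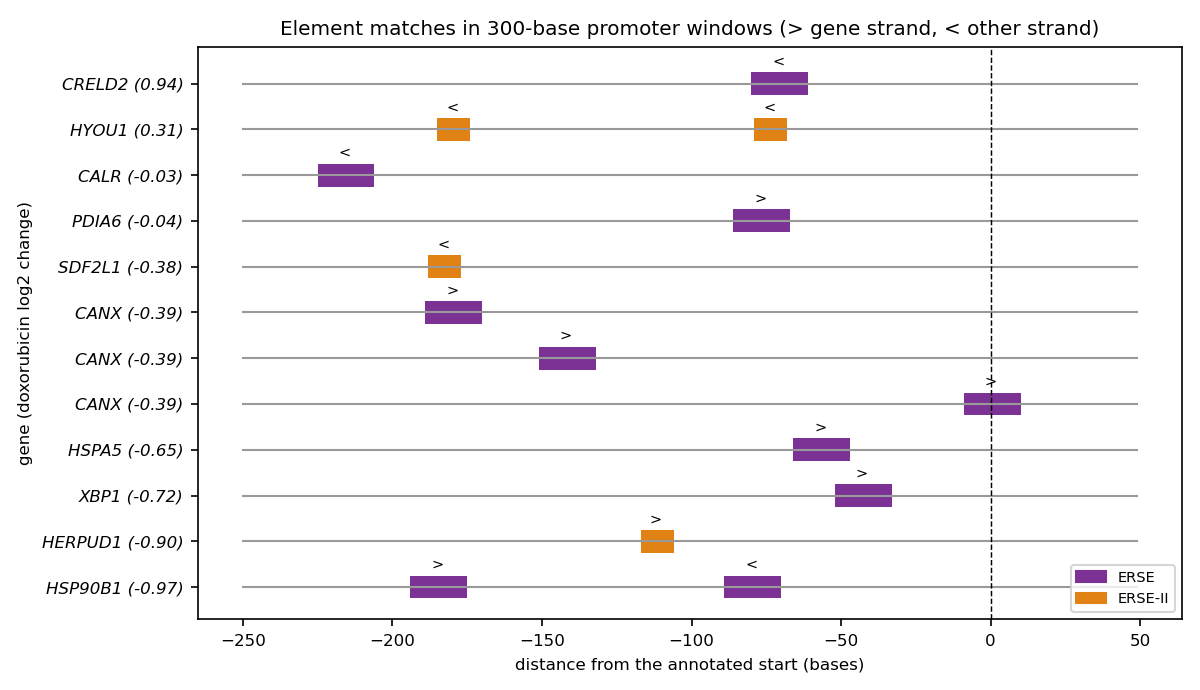
Positions of ERSE (purple) and ERSE-II (orange) matches in the 300-base windows of 10 genes, in bases from the annotated start, with one line for each window and the doxorubicin log2 change in brackets. *CRELD2* and *HYOU1*, at the top, rose with doxorubicin, and the genes from *SDF2L1* down to *HSP90B1* fell. *CANX* has 3 annotated starts, so 1 match appears at 3 distances.

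Both p53 targets used to check the labels rose with both agents. *CDKN1A*, which encodes p21, had a log2 change of 2.47 with doxorubicin and 2.30 with nutlin-3, and *MDM2* had 1.42 and 2.14. Of the osteoblast markers, 9 of 10 were measured and 5 lay above the filter signal. *COL1A1* and *SPARC* were bright, whereas *SP7* lay between 3.05 and 42.4 and *COL1A2*, *ALPL* and *IBSP* had group means of at most 65.4. Summed markers of leukocytes (4 of 5 measured, 3 above the filter signal) ran from 509 to 796 on doxorubicin arrays, against 155 to 246 on untreated arrays, and from 319 to 421 on nutlin-3 arrays, against 126 to 191 on DMSO arrays. *LAPTM5* averaged 509 with doxorubicin, 85.1 untreated, 258 with nutlin-3 and 60.8 in DMSO, while the pan-leukocyte marker *PTPRC* did not exceed 104 and the monocyte marker *CD14* did not exceed 20.4. Summed epithelial markers (4 of 4 measured, 3 above) ran from 1413 to 1733 on doxorubicin arrays against 2059 to 2233 on untreated ones, and from 785 to 895 with nutlin-3 against 1082 to 1282 with DMSO. Endothelial markers (3 of 3, 1 above) summed to 229 to 313 with doxorubicin, 210 to 261 untreated, 142 to 184 with nutlin-3 and 121 to 165 with DMSO. *ACTB*, whose 3′ over 5′ probe set signal reflects RNA integrity, had a ratio of 3.12 ± 0.577 with doxorubicin and 1.53 ± 0.0754 untreated (SD, n = 3, 2-sided exact permutation test, p = 0.1, no smaller value being possible with these group sizes). With nutlin-3 it was 1.31 ± 0.0260 and with DMSO 1.28 ± 0.0281 (exact permutation p = 0.2). The same ratio of *GAPDH* was 1.07 ± 0.116 with doxorubicin and 1.02 ± 0.0356 untreated (exact permutation p = 0.6). For *GAPDH* it was 0.950 ± 0.0188 with nutlin-3 and 0.942 ± 0.0102 with DMSO (exact permutation p = 0.6). The part of RNA quality or of these markers in the results below was not tested.

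With doxorubicin the genes split. The IRE1 gene *ERN1*, the BiP co-chaperone gene *DNAJB9*, the degradation lectin gene *EDEM1*, *CRELD2* and the phosphatase subunit gene *PPP1R15A* rose, whereas the main chaperone genes *HSPA5* and *HSP90B1*, the transcription factor gene *XBP1*, and *HERPUD1* and *SEL1L* of the degradation machinery fell. Tested with limma and called at a Benjamini-Hochberg adjusted p under 0.05 over 13673 genes, 8 of 34 were higher and 11 lower, and 15 were not called. Over all genes, 30.1% were called higher and 25.6% lower, so the shares of 23.5% and 32.4% lie near the background and do not set these genes apart as a group. Their median log2 change was -0.04, against 0.08 over all genes tested. In bulk RNA, fewer cells that express a gene and less RNA per cell cannot be told apart. Changes are given on the scale of log2(signal + 16), doxorubicin minus untreated or nutlin-3 minus DMSO.

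With nutlin-3 fewer genes were called. *PPP1R15A*, *SEC23B*, *EDEM1*, *DNAJB9* and *SEC61A1* were called higher, and *PPP1R15B*, *MANF*, *HYOU1* and *CANX* lower, with log2 changes between -0.43 and 0.46. These 5 and 4 genes are 14.7% and 11.8% of the 34, against 12.5% called higher and 13.9% lower over all genes. The median was -0.04, against 0.01 over all genes. The call of *EDEM1* held in each of 24 alternative settings, while those of the others were lost in between 1 and 11.

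**Figure D2:**
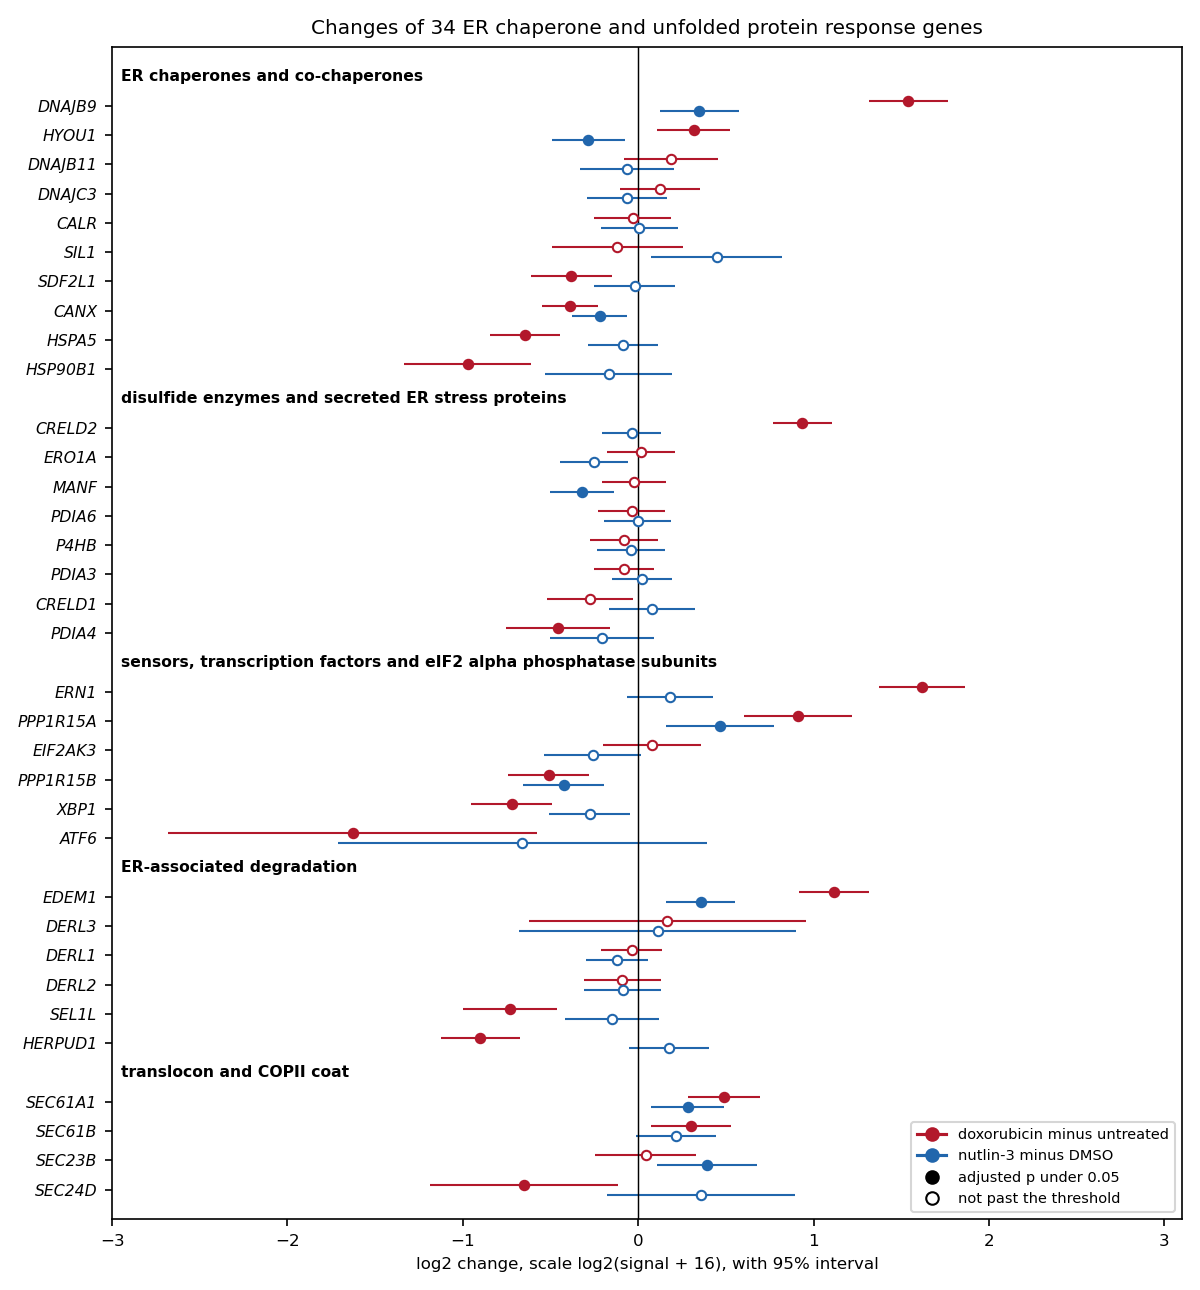
Log2 change of each of the 34 genes with doxorubicin (red, minus untreated) and nutlin-3 (blue, minus DMSO), with 95% intervals, grouped by role and sorted by the doxorubicin change; filled points passed an adjusted p of 0.05. Red points reach from -1.63 for *ATF6*, with the widest interval among called genes, to 1.62 for *ERN1*, and the blue points of called genes stay within -0.43 and 0.46.

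Among the 10 ER chaperones and co-chaperones, 4 fell and 2 rose with doxorubicin. Over all genes 25.6% were called lower and 30.1% higher, and with so few genes nothing is drawn from the counts by role. *HSPA5*, which encodes BiP, the Hsp70 of the ER, had signals of 16102, 14583 and 15834 on the doxorubicin arrays, against 26431, 22827 and 23627 on the untreated arrays. Its nutlin-3 arrays read 25381, 21117 and 19419, against 24731, 21972 and 22894 for DMSO. Every doxorubicin array lay below all 6 control arrays, and the nutlin-3 arrays overlapped their controls. The log2 change was -0.65 (95% interval -0.85 to -0.44, adjusted p = 1.99e-05) with doxorubicin, 1.56-fold lower, and -0.09 (95% interval -0.29 to 0.12, adjusted p = 0.567) with nutlin-3. A second *HSPA5* probe set gave -0.98 with doxorubicin.

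*HSP90B1*, the gene of the ER Hsp90 known as GRP94, read 6026, 8059 and 4488 with doxorubicin, against 14405, 10152 and 11288 untreated. With nutlin-3 it read 8532, 6723 and 6597, against 9135, 7374 and 7971 in DMSO. The doxorubicin arrays lay below the untreated ones but reached into the range of the DMSO arrays, which were themselves lower than untreated. It fell by 0.97 with doxorubicin (95% interval -1.33 to -0.61, adjusted p = 1.24e-04), and its change with nutlin-3 was -0.17 (95% interval -0.53 to 0.19, adjusted p = 0.527). The other *HSP90B1* probe set with that gene alone gave -0.14 with doxorubicin. A further 2 probe sets are also paired with *MIR3652* and were not used.

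*DNAJB9*, which encodes ERdj4, a J-domain co-chaperone of BiP, went the other way. Signals were 4707, 3919 and 3995 with doxorubicin, against 1375, 1617 and 1322 untreated. Nutlin-3 arrays had 2725, 2245 and 2260.3, against 2029.6, 1762 and 1867 on DMSO arrays. The doxorubicin and the nutlin-3 arrays each lay above all 6 control arrays. *DNAJB9* rose 2.91-fold with doxorubicin, a log2 change of 1.54 (95% interval 1.31 to 1.76, adjusted p = 3.01e-09), and by 0.35 (95% interval 0.12 to 0.57, adjusted p = 0.0224) with nutlin-3. Its other probe sets gave 1.36 and 1.90 with doxorubicin and 0.26 each with nutlin-3.

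*HYOU1*, the gene of a large ER Hsp70 relative that exchanges nucleotide on BiP, was the only one of the 34 called in opposite directions. It had 2113, 2517 and 2297 with doxorubicin, against 2021, 1761 and 1773 untreated. It had 1637, 1541 and 1412 with nutlin-3, against 1995, 1682 and 1927 in DMSO. All doxorubicin arrays lay above and all nutlin-3 arrays below the 6 control arrays. The changes were 0.31 (95% interval 0.11 to 0.52, adjusted p = 0.012) and -0.28 (95% interval -0.49 to -0.08, adjusted p = 0.0424). Both calls were fragile. With each array centred on its median the doxorubicin change was 0.14 and did not pass, nor did it without doxorubicin replicate 2 (0.25) or with only doxorubicin replicate 1 (0.19). The nutlin-3 call was lost in 8 of 24 alternatives, over all of which it ran from -0.36 to -0.23.

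*CANX*, which encodes the membrane lectin chaperone calnexin, fell with both agents. Its signals were 11117, 10964 and 10615 with doxorubicin, against 15044, 13821 and 14021 untreated. They were 11985, 11474 and 10924 with nutlin-3, against 14516, 12675 and 12900.3 in DMSO. Both treated groups lay below all 6 controls, with changes of -0.39 (95% interval -0.55 to -0.23, adjusted p = 2.78e-04) and -0.22 (95% interval -0.38 to -0.06, adjusted p = 0.0383). *SDF2L1*, whose product works with BiP and ERdj3, fell by 0.38 with doxorubicin (adjusted p = 0.00711), although its doxorubicin and untreated arrays overlapped. The lectin chaperone gene *CALR* had -0.03 with doxorubicin (95% interval -0.25 to 0.19) and 0.01 with nutlin-3 (-0.21 to 0.22) on its brightest probe set. Its other probe sets disagreed, with -0.84 and 0.18 with doxorubicin and -0.24 and -0.07 with nutlin-3. *DNAJB11*, the gene of ERdj3, *DNAJC3*, the gene of p58IPK, and *SIL1*, the gene of a nucleotide exchange factor of BiP, were called with neither agent, and *SIL1* had 0.45 with nutlin-3 (95% interval 0.07 to 0.82, adjusted p = 0.073).

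**Figure D3:**
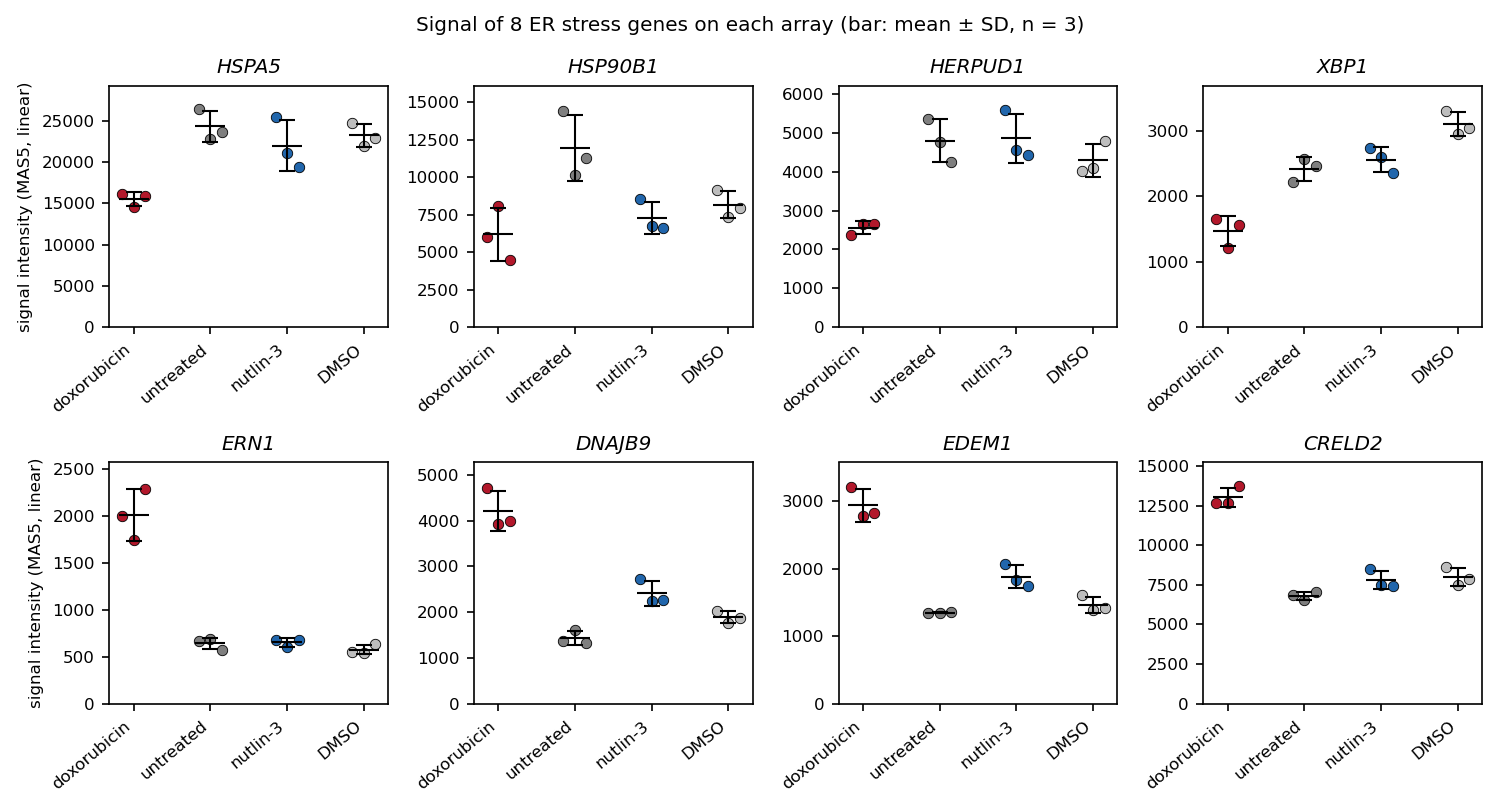
Signal (linear, MAS5) of 8 genes on each array, with doxorubicin, untreated, nutlin-3 and DMSO arrays from left to right; points are arrays and bars the mean ± SD of 3. The top row holds genes that fell with doxorubicin and the bottom row genes that rose, with *HSPA5* at 15506 ± 811 with doxorubicin and 24295 ± 1893 untreated, and *ERN1* at 2007 ± 274 with doxorubicin and 640.4 ± 56.8 untreated.

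Among the 8 disulfide enzymes and secreted stress proteins, *CRELD2* was the single rise and *PDIA4* the single fall with doxorubicin. That is 12.5% each way, against 30.1% higher and 25.6% lower over all genes. *CRELD2*, which encodes a secreted, ER stress-inducible protein with EGF-like domains, had 12683, 12652 and 13740.5 with doxorubicin, against 6843, 6519 and 7036 untreated. With nutlin-3 it had 8489.7, 7490.1 and 7431, against 8614, 7521 and 7888 in DMSO. All doxorubicin arrays lay above the 6 controls, whereas nutlin-3 and DMSO arrays overlapped. The change was 1.91-fold with doxorubicin, 0.94 (95% interval 0.77 to 1.10, adjusted p = 3.53e-08), and -0.04 (95% interval -0.21 to 0.13, adjusted p = 0.786) with nutlin-3. *ALG12*, a glycosylation enzyme gene that starts on the opposite strand of chromosome 22 at position 49918438, has the same ERSE in its own window. Its log2 change with doxorubicin was -0.55 (SE 0.33, adjusted p = 0.172), which did not pass.

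*MANF*, which encodes a secreted ER stress protein that protects neurons, was lower with nutlin-3. It read 5903, 5730.1 and 5439 with nutlin-3, against 7876, 7019 and 6521 in DMSO, and the groups did not overlap. With doxorubicin it read 6308, 5298 and 6131, against 5985, 6179 and 5827 untreated. The changes were -0.32 (95% interval -0.51 to -0.14, adjusted p = 0.0104) with nutlin-3 and -0.02 (95% interval -0.21 to 0.16, adjusted p = 0.83) with doxorubicin. The DMSO arrays were the highest of the 4 groups, and the nutlin-3, doxorubicin and untreated arrays overlapped one another. Without DMSO replicate 1 the nutlin-3 change was -0.25 and did not pass.

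Of the protein disulfide isomerase genes, which form and reshuffle disulfide bonds, 1 was called with doxorubicin. *PDIA4* fell by 0.46 with doxorubicin (95% interval -0.75 to -0.16, adjusted p = 0.0103), and its second probe set gave -0.41. *P4HB*, *PDIA3* and *PDIA6* had -0.08, -0.08 and -0.04 with doxorubicin on the brightest probe set, with 95% intervals inside -0.27 to 0.15. Their other probe sets read lower, between -1.05 and -0.41 for *P4HB*, -0.67 and -0.53 for *PDIA3*, and -0.29 and -0.05 for *PDIA6*. *ERO1A*, the gene of the oxidase that recharges these isomerases, had 0.02 with doxorubicin and -0.25 (95% interval -0.45 to -0.06, adjusted p = 0.0531) with nutlin-3. Its other probe sets read lower, at -0.54 and -0.43 with doxorubicin and -0.46 and -0.38 with nutlin-3. *CRELD1*, a membrane relative of *CRELD2*, had -0.27 with doxorubicin (adjusted p = 0.0533) and 0.08 with nutlin-3.

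Of the 6 sensors, transcription factors and eIF2 alpha phosphatase subunits, 2 rose and 3 fell with doxorubicin, where all genes gave 30.1% and 25.6%. *ERN1* had the largest rise of the 34. Its signals were 1993, 1741 and 2287 with doxorubicin, against 663, 683 and 576 untreated, and the groups lay far apart. With nutlin-3 they were 682, 599 and 679, against 551, 539 and 633 in DMSO, which overlapped. *ERN1* rose 3.07-fold with doxorubicin, a log2 change of 1.62 (95% interval 1.37 to 1.86, adjusted p = 4.66e-09), and had 0.18 (95% interval -0.06 to 0.43, adjusted p = 0.287) with nutlin-3. Of its other probe sets, 1 gave 1.20 and 1 gave -0.09 with doxorubicin.

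*XBP1*, the transcription factor gene whose mRNA IRE1 splices, was lower. It had 1649, 1207 and 1561 with doxorubicin, against 2219.7, 2571 and 2472 untreated. It had 2734, 2602 and 2353 with nutlin-3, against 3312, 2956 and 3055 in DMSO. The doxorubicin arrays lay below all controls, and the nutlin-3 arrays lay below the DMSO arrays, with 1 inside the untreated range and the others above it. The log2 change was -0.72 (95% interval -0.95 to -0.49, adjusted p = 2.76e-05) with doxorubicin and -0.28 (95% interval -0.51 to -0.05, adjusted p = 0.0737) with nutlin-3, the second short of the threshold. The second *XBP1* probe set gave -0.07 with doxorubicin and -0.23 with nutlin-3.

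*ATF6*, the gene of the sensor that is cut in the Golgi, was variable. Its brightest probe set read 174, 921 and 1189 with doxorubicin, against 2567, 2573 and 934 untreated. It read 980.3, 768 and 661 with nutlin-3, against 1514, 981 and 1357 in DMSO. Doxorubicin replicate 1 and untreated replicate 3 stood apart from the rest of their groups, and the doxorubicin and untreated arrays overlapped, whereas the nutlin-3 arrays lay below the DMSO arrays. limma gave -1.63 (95% interval -2.68 to -0.58, adjusted p = 0.0103) with doxorubicin and -0.66 (95% interval -1.71 to 0.39, adjusted p = 0.372) with nutlin-3. Without doxorubicin replicate 1 the doxorubicin change was -0.80 and did not pass, and the other probe sets gave -0.57 to -0.01. *EIF2AK3*, which encodes PERK, had 2621, 1849 and 2193 with doxorubicin, against 2019, 1989 and 2258 untreated, and 2498, 2126 and 1771 with nutlin-3, against 2841, 2365 and 2417 in DMSO. All its groups overlapped within each comparison, with changes of 0.08 (95% interval -0.20 to 0.35, adjusted p = 0.648) and -0.26 (95% interval -0.54 to 0.02, adjusted p = 0.167). The sign of its doxorubicin change turned without doxorubicin replicate 1 (-0.0500) and with each array centred on its median (-0.10).

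The regulatory subunits that direct protein phosphatase 1 to eIF2 alpha moved in opposite directions with both agents. *PPP1R15A*, the inducible subunit GADD34, had 589, 592 and 592 with doxorubicin, against 339, 274 and 312 untreated. With nutlin-3 it had 607, 421 and 567, against 329, 367 and 441 in DMSO, where 1 nutlin-3 array overlapped the controls. It rose by 0.91 (95% interval 0.60 to 1.22, adjusted p = 4.66e-05) and by 0.46 (95% interval 0.16 to 0.77, adjusted p = 0.0253). *PPP1R15B*, the constitutive subunit CReP, had 2453, 2190.3 and 2251 with doxorubicin, against 3362, 3276 and 3201 untreated. Nutlin-3 arrays had 2799.6, 2695 and 2153, against 3819, 2909 and 3564 in DMSO. Both treated groups lay below all 6 controls, and *PPP1R15B* fell by 0.51 (adjusted p = 7.67e-04) with doxorubicin and by 0.43 (adjusted p = 0.00783) with nutlin-3. Without nutlin-3 replicate 3 the second change was -0.31 and did not pass.

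In ER-associated degradation, which returns misfolded proteins to the cytosol for the proteasome, 1 of 6 measured genes rose and 2 fell with doxorubicin. The shares over all genes were 30.1% higher and 25.6% lower. *HERPUD1*, which encodes a scaffold of the HRD1 ligase complex, had 2364, 2646 and 2666 with doxorubicin, against 5360.4, 4777 and 4265 untreated. It had 5589, 4563 and 4442 with nutlin-3, against 4012, 4096 and 4791 in DMSO. Doxorubicin arrays lay below all controls, and nutlin-3 arrays overlapped theirs. The changes were -0.90 (95% interval -1.13 to -0.67, adjusted p = 1.92e-06), 1.87-fold lower, and 0.17 (95% interval -0.05 to 0.40, adjusted p = 0.266).

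*EDEM1*, which encodes a lectin that delivers misfolded glycoproteins for degradation, rose with both agents. Its signals were 3216, 2777 and 2822 with doxorubicin, against 1343, 1337 and 1352 untreated. They were 2073, 1829.7 and 1743 with nutlin-3, against 1605, 1383 and 1414 in DMSO. Each treated group lay above all 6 controls. The rise was 2.17-fold with doxorubicin, 1.12 (95% interval 0.92 to 1.31, adjusted p = 2.90e-08), and 1.28-fold with nutlin-3, 0.35 (95% interval 0.16 to 0.55, adjusted p = 0.00896).

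*SEL1L*, the gene of the adaptor of the HRD1 ligase, had 2363, 1675 and 1678 with doxorubicin, against 2929, 3054 and 3415 untreated. It had 4010.0, 3764 and 3307 with nutlin-3, against 4653, 3723 and 3927 in DMSO. The doxorubicin arrays lay below all controls, and the changes were -0.73 (SE 0.13, adjusted p = 1.10e-04) and -0.15 (95% interval -0.42 to 0.12, adjusted p = 0.441). Its other probe sets gave -1.38 to -0.26 with doxorubicin. The derlin genes *DERL1*, *DERL2* and *DERL3*, which encode membrane proteins of the same complexes, had -0.04, -0.09 and 0.16 with doxorubicin and -0.12, -0.09 and 0.11 with nutlin-3, and none passed. The interval of *DERL3* was -0.63 to 0.95 with doxorubicin, and its signals lay between 30.9 and 106.

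At the entry and exit of the ER, *SEC61A1*, the gene of the pore subunit of the translocon, rose with both agents. It had 4991, 4907 and 5594 with doxorubicin, against 3972, 3746 and 3319 untreated. It had 5331, 4562 and 4375 with nutlin-3, against 4214, 3568 and 3928 in DMSO. Each treated group lay above all controls, with changes of 0.49 (95% interval 0.28 to 0.70, adjusted p = 4.12e-04) and 0.28 (95% interval 0.08 to 0.49, adjusted p = 0.0419). Its other probe set gave 0.04 with doxorubicin, and with the mean of both probe sets the change was 0.27 and did not pass. *SEC61B*, a small subunit of the same channel, had 12909, 10008 and 11591 with doxorubicin, against 8089, 9411 and 10527 untreated, which overlapped. Its change was 0.30 (95% interval 0.07 to 0.53, adjusted p = 0.0254) with doxorubicin, where a second probe set gave -0.28, and 0.22 with nutlin-3. The doxorubicin call was lost in 6 of 24 alternatives, among them those without untreated replicate 1 (0.20), doxorubicin replicate 1 (0.21) or doxorubicin replicate 3 (0.29), and the lowest value was 0.01 with the mean of both probe sets.

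The COPII coat carries cargo out of the ER, and both of its genes among the 34 were called with 1 agent each. *SEC24D*, which encodes a cargo-binding subunit, had 321, 123 and 281 with doxorubicin, against 259, 422 and 432 untreated. It had 698, 838 and 697 with nutlin-3, against 632, 553 and 545 in DMSO. The doxorubicin arrays overlapped the untreated ones, and the nutlin-3 arrays lay above all 6 controls. The changes were -0.65 (95% interval -1.19 to -0.11, adjusted p = 0.038) and 0.36 (95% interval -0.18 to 0.89, adjusted p = 0.341). The doxorubicin call was lost in 7 of 24 alternatives, among them those without untreated replicate 2 (-0.54), untreated replicate 3 (-0.53) or doxorubicin replicate 2 (-0.26). *SEC23B*, the gene of its partner subunit, had 4111, 5027 and 4724 with nutlin-3, against 3423, 3596 and 3495 in DMSO, all above. With doxorubicin it had 4134, 3368 and 2576, against 2809, 3236 and 3610.3 untreated. The changes were 0.39 (95% interval 0.11 to 0.68, adjusted p = 0.0412) with nutlin-3 and 0.04 (95% interval -0.24 to 0.33, adjusted p = 0.809) with doxorubicin.

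Set against the 6 control arrays of both kinds, 7 of the 34 genes had all 3 doxorubicin arrays above and 6 had all below, against 26.8% above and 22.3% below over all genes. The rises were *ERN1*, *DNAJB9*, *EDEM1*, *CRELD2*, *PPP1R15A*, *SEC61A1* and *HYOU1*, and the falls *HERPUD1*, *SEL1L*, *XBP1*, *HSPA5*, *PPP1R15B* and *CANX*. The doxorubicin calls of 11 genes, *CRELD2*, *DNAJB9*, *EDEM1*, *ERN1*, *HERPUD1*, *HSP90B1*, *HSPA5*, *PPP1R15A*, *PPP1R15B*, *SEL1L* and *XBP1*, held in all 24 alternatives. One of these kept only doxorubicin replicate 1 of its group, was chosen after seeing the data, and assumes that this lone array varies like those of the other groups. Its *ACTB* ratio of 2.48 was the lowest with doxorubicin and still above the 1.44 to 1.58 of the untreated arrays, so the fit does not remove that difference. The mean of all probe sets gave smaller changes of 0.91 for *ERN1*, -0.56 for *HSP90B1* and -0.39 for *XBP1*. The fit with only doxorubicin replicate 1 gave -0.40 for *SEL1L*. The doxorubicin calls of *CANX*, *PDIA4* and *SDF2L1* were not followed gene by gene through the alternatives.

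Most calls with nutlin-3 depended on single arrays. *PPP1R15A* was lost without DMSO replicate 1 or 2 or nutlin-3 replicate 1 or 3, and *DNAJB9* without DMSO replicate 2 or 3 or nutlin-3 replicate 1, with values over all 24 alternatives of 0.36 to 0.66 and 0.26 to 0.40. *SEC61A1* was lost without untreated replicate 2, DMSO replicate 2 or 3, or nutlin-3 replicate 1 or 2 (0.20 to 0.34). *SEC23B* was lost without untreated replicate 2, any DMSO array, or nutlin-3 replicate 2 or 3 (0.27 to 0.47). *CANX* and *HYOU1* were each lost without DMSO replicate 1 or 3 or nutlin-3 replicate 2 or 3 (-0.29 to -0.16 for *CANX*). No sign turned among the 9 called genes.

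Many of these genes have several probe sets, and they did not always move alike. Of 22 genes with more than 1 probe set past the filter, 14 had all of them on the same side of 0 with doxorubicin, and 18 with nutlin-3. Among the 13 of these called with doxorubicin, 11 had all probe sets on 1 side, with *ERN1* and *SEC61B* the exceptions. With doxorubicin 24 of the 42 other probe sets read lower than the one used, and with nutlin-3 27 of 42.

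**Figure D4:**
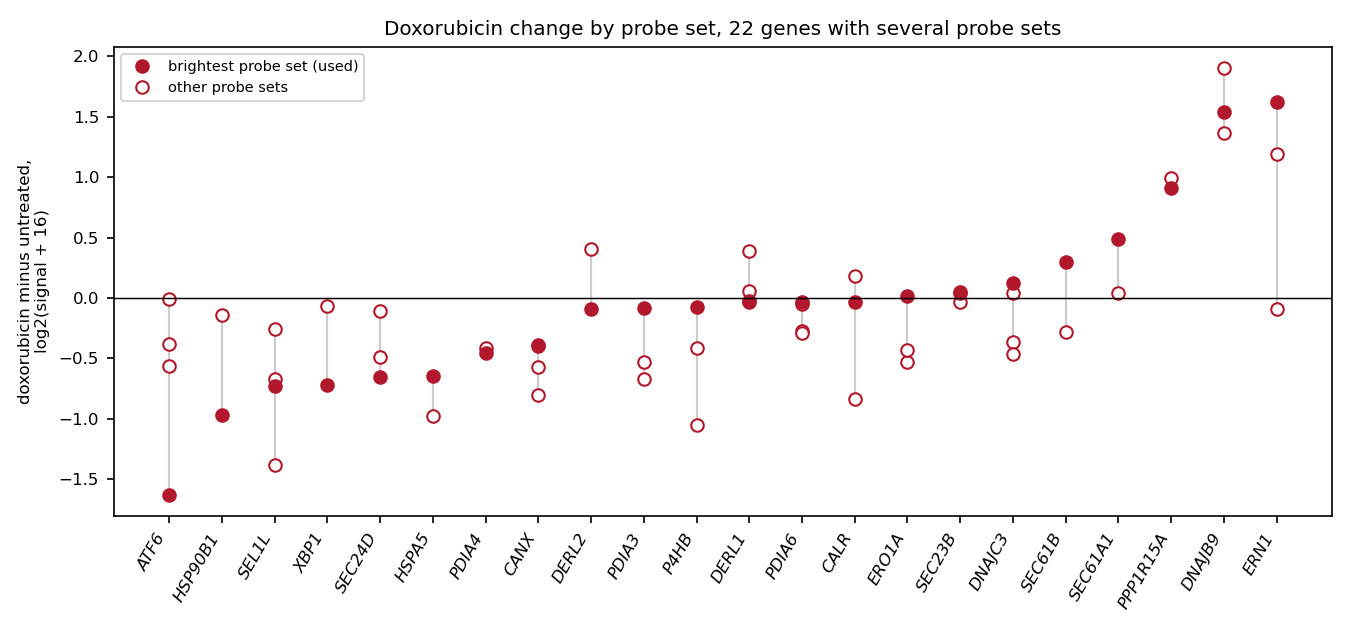
Doxorubicin minus untreated log2 change of every probe set past the filter and paired with 1 gene, for the 22 genes with more than 1. The brightest (filled, used in the test) and the others (open) are joined by a line. The 3 *DNAJB9* probe sets lie between 1.36 and 1.90, while those of *ATF6*, *HSP90B1*, *P4HB* and *ERN1* spread widely, and *ERN1* has a dim one at -0.09.

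The test of the difference between the doxorubicin and nutlin-3 responses, which share no array, called 5 genes higher and 6 lower, against 21.8% and 17.7% of all genes. The differences were 1.44 for *ERN1* (95% interval 1.09 to 1.79, adjusted p = 3.85e-06), 1.19 for *DNAJB9* (adjusted p = 1.10e-05), 0.97 for *CRELD2* (adjusted p = 4.33e-06), 0.76 for *EDEM1* and 0.60 for *HYOU1*. They were -1.07 for *HERPUD1* (95% interval -1.40 to -0.75, adjusted p = 3.39e-05), -1.01 for *SEC24D*, -0.80 for *HSP90B1*, -0.58 for *SEL1L*, -0.56 for *HSPA5* and -0.44 for *XBP1*. *DNAJB9* and *EDEM1* thus rose with both agents and more with doxorubicin. *PPP1R15A*, *SEC61A1*, *CANX* and *PPP1R15B* were called the same way with both agents, and their differences of 0.45 (0.01 to 0.88), 0.21 (-0.09 to 0.50), -0.17 (-0.39 to 0.05) and -0.09 (-0.41 to 0.24) did not pass, which does not show that the responses were alike. A further 13 genes were called with neither agent. The differences of *XBP1* and *SEC24D* were lost in 10 and 9 of 23 alternatives, with values from -0.60 to -0.14 and from -1.25 to -0.52. Both were lost without untreated replicate 2 or 3, doxorubicin replicate 2, DMSO replicate 2 or 3, or nutlin-3 replicate 2, and *XBP1* also without nutlin-3 replicate 1. The difference of *HSP90B1* did not pass with the mean of all probe sets (-0.47) or with no intensity trend (-0.80), that of *HSPA5* with quantile normalization (-0.33), that of *SEL1L* with only doxorubicin replicate 1 (-0.25) and that of *HYOU1* with median centring (0.44). Those of *ERN1*, *DNAJB9*, *CRELD2*, *EDEM1* and *HERPUD1* passed in all 23, although *ERN1* was 0.72 with the mean of all probe sets.

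The control groups also differed. DMSO against untreated shares arrays with both comparisons, and 5 genes were called higher and 1 lower in DMSO, against 8.14% and 5.98% of all genes. *DNAJB11* had 0.46, *CRELD1* 0.46, *DERL2* 0.40, *DNAJB9* 0.39, *XBP1* 0.36 and *HSP90B1* -0.54 (adjusted p from 0.014 to 0.045). *SEC24D* had the largest change of the 34, 0.65, and was not called. Its DMSO arrays (632, 553 and 545) all lay above the untreated ones (259, 422 and 432). All 6 calls were lost in some of 24 alternatives, that of *HSP90B1* in 12 (-0.35 with the mean of all probe sets), *XBP1* in 11 (0.06 with that mean), *DNAJB9* in 6, *DNAJB11* and *DERL2* in 5 each and *CRELD1* in 2. For *DNAJB9* the DMSO arrays averaged 1886 ± 135 and the untreated arrays 1438 ± 157 (SD, n = 3), below the 4207 ± 435 of the doxorubicin arrays.

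Where the promoter holds an element, the direction with doxorubicin was mixed. Of the 10 genes with ERSE or ERSE-II in the window, 2 rose (*CRELD2*, *HYOU1*), 6 fell (*HSPA5*, *HSP90B1*, *XBP1*, *CANX*, *HERPUD1*, *SDF2L1*) and *CALR* and *PDIA6* were not called, with a median of -0.39. Over all genes 30.1% were called higher and 25.6% lower, with a median of 0.08. Of 22 genes tested outside the 35 with either element, 6 rose and 3 fell, with a median of 0.12. The 8 of them with ERSE had 4 rises and a median of 0.29, and the 14 with ERSE-II had 2 rises, 3 falls and a median of 0.09. Among the ERSE genes *ERO1B*, an oxidase gene related to *ERO1A*, rose by 2.71 with doxorubicin and by 0.61 with nutlin-3. These matches are letters in a window and not evidence of binding, and genes without a match may carry other elements.

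Genes of the same pathways outside the 35 were also described by list. Each count below stands beside the shares over all genes. These were 30.1% higher and 25.6% lower with doxorubicin, and 12.5% and 13.9% with nutlin-3. Of 26 measured ER folding enzymes, 5 rose and 10 fell with doxorubicin, with a median of -0.17. *ERO1B* rose to 1015 ± 119.7 with doxorubicin, against 141 ± 13.4 untreated (SD, n = 3), and *SDF2*, a relative of *SDF2L1*, rose by 0.44, while the thioredoxin-like *TXNDC12* and the prolyl isomerase gene *FKBP7* each fell by 0.94. With nutlin-3 1 of them rose (*ERO1B*) and 5 fell, led by *TXNDC12* at -0.72 and *DNAJC1*, a J-domain gene, at -0.45. Of 22 measured degradation genes, 8 rose and 3 fell with doxorubicin (median 0.03). *FAM8A1*, an HRD1 cofactor gene, rose by 1.45 and the selenoprotein gene *SELENOK* by 0.85, while the deglycosylating enzyme gene *NGLY1* fell by 0.98 and the conjugating enzyme gene *UBE2J1* by 0.84. With nutlin-3 2 rose (*FAM8A1* at 0.50, *OS9* at 0.33) and 2 fell (*FAF2* at -0.34, *STT3B* at -0.33).

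Of 24 measured translocon, signal peptidase and oligosaccharyltransferase genes, 5 rose and 7 fell with doxorubicin (median -0.07), with *SSR4* at 0.66 and *SEC11C* at 0.52, and the signal recognition particle gene *SRP72* at -1.01 and *SSR2* at -0.80. With nutlin-3 2 rose (*SSR3* at 0.54, *SSR4* at 0.25) and 4 fell, led by *SPCS2* at -0.37 and *SEC63* at -0.36. Of 11 COPII genes, 2 rose and 3 fell with doxorubicin (median -0.05), with *PREB* at 0.35, *SAR1A* at 0.25, *SEC23A* at -0.85 and *SEC13* at -0.58, and with nutlin-3 1 was called, *SEC31A* at 0.40. Of 22 measured genes on a list of regulators, 6 rose and 7 fell with doxorubicin (median -0.04). That list also holds cell death genes and eIF2 alpha kinase genes other than *EIF2AK3*, so not all are regulators of the unfolded protein response. The stress transcription factor gene *ATF3* had 4078 ± 284 with doxorubicin, against 565 ± 47.3 untreated (SD, n = 3), and the death receptor gene *TNFRSF10B*, also a p53 target, rose by 2.23. In the same list *ATF4*, the transcription factor gene downstream of PERK, fell by 0.93 and its target *CHAC1* by 0.98. With nutlin-3 2 genes of this list rose (*TNFRSF10B* at 1.41, *EIF2AK4* at 0.55) and 5 fell, led by the cell death gene *BCL2L11* at -0.81 and *CREB3L1* at -0.61.

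Of 17 measured genes listed as cytosolic heat shock chaperones, a list from outside the ER, 4 rose and 9 fell with doxorubicin (median -0.22). The list also names the mitochondrial chaperone genes *HSPD1* and *HSPE1* and the transcription factor gene *HSF1*. *HSPB8* rose by 2.10 and its partner *BAG3* by 0.89, while *DNAJB6* fell by 1.29 and the Hsp70 and Hsp90 linker *STIP1* by 1.06. With nutlin-3 2 rose (*HSPB8* at 0.60, *HSPA4* at 0.20) and 3 fell, led by *FKBP4* at -0.52 and *HSPB1* at -0.29. Over all genes the shares were 30.1% higher and 25.6% lower with doxorubicin, and 12.5% higher and 13.9% lower with nutlin-3. Nothing particular to a list is drawn from its count.

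**Figure D5:**
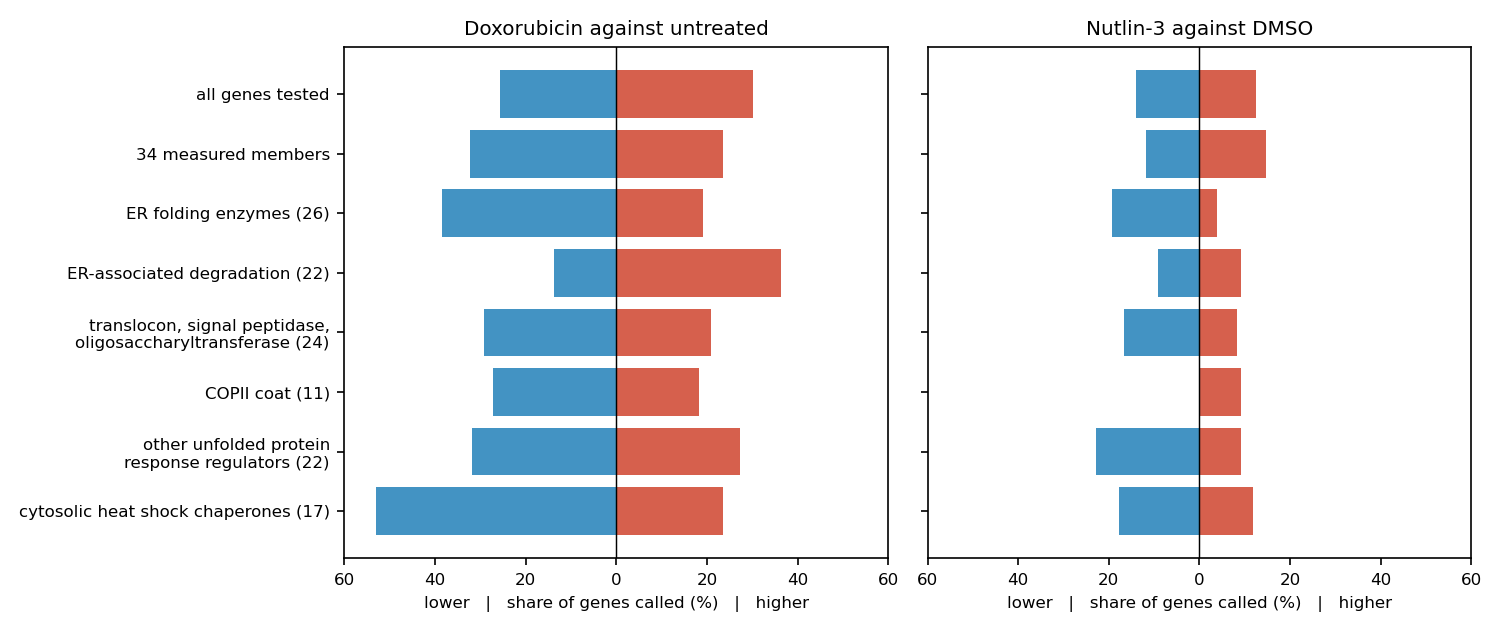
Share of genes called higher (right, red) and lower (left, blue) with doxorubicin against untreated and nutlin-3 against DMSO, for all genes tested, the 34 genes and the lists outside them, with the number measured in brackets. The 34 genes lie near all genes in both panels, at 23.5% higher and 32.4% lower with doxorubicin.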

How the data were processed

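Total RNA of 12 samples was hybridised to Affymetrix U133 Plus 2.0 arrays, 3 per group, after amplification with a 3′ kit, per the labels' protocols. The authors deposited a linear intensity for each probe set on each array, made with MAS5 per the submitters' processing notes, with settings not given in the sources used here. The trimmed mean was 500.1 on every array, so a change of total mRNA per cell cannot be seen. Of 54675 probe sets, 62 controls were left out, 41097 had 1 gene symbol, 1801 several and 11777 were not listed.

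Intensities became log2(signal + 16), which understates changes of dim genes. Probe sets under the 40th percentile of mean log2 value (signal 49.3) were dropped, and each gene took its brightest single-gene probe set. limma 3.58.1 in R 4.3.3 fitted all 12 arrays with 4 group means and an intensity trend, with Benjamini-Hochberg adjustment over 13673 genes. The test was checked on simulated data. Intervals are at the 95% level, and the number of arrays limits their precision. No label states that replicates came from separate cultures. The p-values therefore reflect the scatter among these 12 samples, possibly technical scatter alone. Arrays of a group correlated at 0.980 to 0.991 across genes.

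The genes and lists were chosen with earlier results of these data known. Values per array are given for up to 8 called rises and 8 called falls per agent, for *HSPA5*, *HSP90B1*, *XBP1*, *ERN1*, *ATF6* and *EIF2AK3*, and for up to 6 called differences, and up to 2 rises and 2 falls are named per list and agent. Alternatives covered the scaling, pseudocount, filter, probe set choice, variance trend, arrays fitted, replicate block and single arrays left out. A fit with only doxorubicin replicate 1 of its group was chosen after seeing the data. Promoter windows are those of RefSeq.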

Additional observations from a re-analysis of the deposited data

Results flagged for a closer look

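The doxorubicin and nutlin-3 responses differed past the threshold for 11 of the 34 genes, by limma's test of the difference itself. Of the 34, 14.7% were called higher and 17.6% lower, against 21.8% and 17.7% of all genes. The count therefore does not set these genes apart. The doxorubicin response was higher by 1.44 for *ERN1*, 1.19 for *DNAJB9*, 0.97 for *CRELD2*, 0.76 for *EDEM1* and 0.60 for *HYOU1* on the log2 scale. The difference was -1.07 for *HERPUD1*, -1.01 for *SEC24D*, -0.80 for *HSP90B1*, -0.58 for *SEL1L*, -0.56 for *HSPA5* and -0.44 for *XBP1*. For *HYOU1* the 2 responses had opposite signs and both passed. The difference of *XBP1* combines changes of -0.72 with doxorubicin and -0.28 with nutlin-3, and that of *SEC24D* combines -0.65 and 0.36. The calls of *SEC24D*, *XBP1*, *HSP90B1*, *SEL1L*, *HSPA5* and *HYOU1* were each lost under at least 1 alternative, with values of -0.47 for *HSP90B1*, -0.25 for *SEL1L*, -0.33 for *HSPA5* and 0.44 for *HYOU1* (*HSP90B1* also at -0.80 with no intensity trend). Groups of 3 arrays are too small for a test of single arrays that stand apart.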

How the results depend on the processing

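The counts with doxorubicin, 8 higher and 11 lower, stayed within 1.5 times under each alternative. They were 7 to 8 and 10 to 12 with single arrays left out, and 6 and 13 with median centring. Probe set choice moved the falls most. There were 8 higher and 14 lower when probe sets ending in _s_at or _x_at were avoided. With the mean of all probe sets 6 were higher and 15 lower, where over all 13673 genes 3989 were higher and 3468 lower. The 5 genes called higher with nutlin-3 became 3 with quantile normalization, with no filter, with the mean of all probe sets and when probe sets ending in _s_at or _x_at were avoided, 2 with no intensity trend and 1 with median centring. With single arrays left out there were 1 to 5 (1 without DMSO replicate 2, 2 without DMSO replicate 3 or nutlin-3 replicate 1, 3 without untreated replicate 2 or nutlin-3 replicate 2 or 3). The 4 called lower became 2 with median centring, no filter or no intensity trend, and 1 to 5 with single arrays left out (1 without DMSO replicate 1 or nutlin-3 replicate 3, 2 without nutlin-3 replicate 2). For the difference of responses, 5 higher became 8 with only doxorubicin replicate 1 and 6 lower became 3 with no intensity trend, with 5 to 6 and 4 to 8 with single arrays left out. For DMSO against untreated, 5 higher became 9 with median centring, 8 with the replicate block, 8 with only doxorubicin replicate 1, 3 with the mean of all probe sets and 2 with no intensity trend, and 0 to 8 with single arrays left out. The 0 was without DMSO replicate 3, where limma gave 10 at an unadjusted p under 0.05, 1 gene was left without untreated replicate 2 or DMSO replicate 1, 2 without untreated replicate 1 or 3, and 8 were called without doxorubicin replicate 2. The 1 lower (*HSP90B1*) became 2 with the mean of all probe sets, where *HSP90B1* itself did not pass (-0.35), so the 2 are other genes. The count was 0 with quantile normalization, median centring, no filter or no intensity trend, where limma gave 1 to 2 at an unadjusted p under 0.05. With single arrays left out it was 0 to 2, with 2 without DMSO replicate 1. It was 0 without untreated replicate 1 or 3, doxorubicin replicate 1, DMSO replicate 2 or 3, or nutlin-3 replicate 2 or 3. In those fits limma gave 1 to 2 at an unadjusted p under 0.05. Median centring turned *EIF2AK3* with doxorubicin to -0.10 and moved the median of all genes from 0.08 to -0.10, and *EIF2AK3* ran from -0.0500 (without doxorubicin replicate 1) to 0.20 with single arrays left out. Median centring split the calls over all genes with doxorubicin into 2733 higher and 4389 lower, against 4112 and 3504. Deviations of same-numbered arrays correlated at -0.09 to -0.02 for doxorubicin and untreated and at -0.01 to 0.17 for nutlin-3 and DMSO. They correlated at 0.01 to 0.10 for DMSO and untreated. With 3 arrays per group, these values cannot decide whether same-numbered samples were paired. Apart from the genes higher in DMSO than untreated, the replicate block changed no count by over 1.5 times. Of the values of single genes, 388 of 408 kept direction and side of the threshold with doxorubicin, 303 of 360 with nutlin-3, 229 of 253 for the difference and 103 of 144 for DMSO. The cause of these shifts was not tested. MAS5 signals carry no background level here, so no gene was called absent.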
